A study of Mus musculus with 3 samples.

Results

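The ventral progenitor domain transcription factors Olig1, Olig2, Nkx6-1, Nkx6-2, Nkx2-2, Pax6 and Irx3 were followed across 3 populations of mouse cells separated by flow sorting on a green fluorescent protein (GFP) reporter. These 7 genes were chosen by name, and their probes were found through the gene symbols of the array's annotation. Of the 7 genes, 6 had a listed probe among the 16593 genes of the array, with 7 probes in all, and Nkx6-2 was not analysed here. Per the labels, Hb9-GFP mouse embryonic stem cells, whose GFP reports on the motor neuron gene Hb9 (Mnx1), were grown on feeder cells with serum and turned into motor neurons as embryoid bodies given retinoic acid and purmorphamine, a compound that switches on Hedgehog signalling. All 3 populations share this line and this treatment: GFP high (called motor neurons in the labels), GFP low, and GFP negative. Each was hybridised to 1 array, and they are named below as the high, low and negative gates. The labels give no gate limits, no day of culture and no number of cultures.

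In the ventral neural tube, Sonic hedgehog released by the notochord and floor plate divides dividing progenitors into stacked domains, and each domain is marked by a combination of these transcription factors. Class II factors, which Hedgehog signalling turns on (Nkx2-2, Olig2, Nkx6-1 and Nkx6-2), and class I factors, which it turns off (Pax6 and Irx3), repress each other across domain borders, as Olig2 and Irx3 do at the upper border of the motor neuron progenitor domain and Nkx2-2 and Pax6 do at its lower border. Olig2 with Nkx6-1 marks the progenitors of motor neurons and, later, of oligodendrocytes, Nkx2-2 marks the domain of V3 interneurons below, and Irx3 marks the domains above, of which the nearest, that of V2 interneurons, also has Nkx6-1.

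The detected members are grouped below by the array on which each was brightest. The RefSeq start-site windows of 1 member of each group are shown to give the letters behind the names. Each window runs from 250 bases before to 50 bases after an annotated start in GRCm38.p6, is written 5′ to 3′ on the gene's strand, and has capitals at every match on either strand to CANNTG (the E-box bound by basic helix-loop-helix factors such as Olig2), TAAT (the core of many homeodomain sites), AAGTG (the core of Nkx2-type sites) or TATAAA (the TATA box).
Olig2 (chr16:91225300-91225599, plus strand; brightest in the high gate): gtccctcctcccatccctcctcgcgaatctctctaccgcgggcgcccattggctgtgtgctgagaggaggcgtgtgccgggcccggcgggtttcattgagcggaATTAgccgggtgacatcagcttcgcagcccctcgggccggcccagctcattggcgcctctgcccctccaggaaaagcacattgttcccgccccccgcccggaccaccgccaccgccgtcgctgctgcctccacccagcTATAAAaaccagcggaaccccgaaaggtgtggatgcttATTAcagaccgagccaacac
Nkx2-2 (chr2:147186353-147186652, minus strand; brightest in the negative gate): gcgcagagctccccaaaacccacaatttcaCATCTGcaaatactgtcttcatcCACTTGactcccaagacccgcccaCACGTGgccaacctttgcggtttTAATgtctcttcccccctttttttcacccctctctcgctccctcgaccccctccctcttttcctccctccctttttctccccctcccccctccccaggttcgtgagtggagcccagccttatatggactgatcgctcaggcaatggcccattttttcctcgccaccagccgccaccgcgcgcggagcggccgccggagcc
Irx3 (chr8:91801605-91801904, minus strand; brightest in the low gate): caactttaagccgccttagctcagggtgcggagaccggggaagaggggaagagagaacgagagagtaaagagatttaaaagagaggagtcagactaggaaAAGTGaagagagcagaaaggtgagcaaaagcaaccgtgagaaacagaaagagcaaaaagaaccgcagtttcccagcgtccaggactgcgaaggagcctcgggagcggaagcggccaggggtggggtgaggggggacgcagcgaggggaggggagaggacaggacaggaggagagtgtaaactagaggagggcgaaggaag
The Olig2 window held 0 E-boxes, 2 TAAT cores and 1 TATA box. The Nkx2-2 window held 3 E-boxes, 1 TAAT core and 1 AAGTG core, the last inside an E-box. The Irx3 window held 1 AAGTG core and 0 matches to the other motifs. Over all 32851 windows of the same length, 72.3% held an E-box, 58.0% a TAAT core, 46.4% an AAGTG core and 13.6% a TATA box. None of the 3 windows matched the GLI site TGGGTGGTC, which 0.253% of all windows hold, or the Iroquois palindrome ACANNTGT, which overlaps the E-box and which 7.38% hold. These counts describe the letters of these windows and not binding by any factor, and the enhancers known to drive such genes can lie outside them.

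Signals were read as linear brightness per probe and then corrected for background, quantile normalized and expressed as log2. A probe counted as detected where its detection p-value, which compares it with control probes of its own array, was under 0.01. The arrays had median deposited signals of 105.3 to 109.9, and between 11689 and 11736 of 25697 probes were detected on each. Without replicates no difference below has a test. As a gauge of probe error, the brightest and second probes of 2370 genes gave an SD, for the log2 difference read by 1 probe, of 0.33 between the high and negative gates, 0.26 between high and low and 0.29 between low and negative. This gauge covers neither differences between cultures nor what all probes of 1 array share. In sorted bulk samples, fewer cells of a type and less RNA per cell cannot be told apart. The reporter gene itself, Mnx1, read 7.99, 5.30 and 5.16 on the log2 scale in the high, low and negative gates, with the last pair just above the dimmest detected probes.

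Of the 6 genes with a probe, Olig1, Olig2, Nkx6-1 and Irx3 were detected on all 3 arrays, Nkx2-2 on the low and negative arrays, and Pax6 on none. Levels of different genes are not set against each other, since probes differ in brightness, and the list sums further below carry this limit.

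Olig2, the basic helix-loop-helix factor of motor neuron and oligodendrocyte progenitors, was brightest in the high gate. Its deposited signal was 178.7 in the high gate, 172.6 in the low gate and 156.0 in the negative gate, over an estimated background of 93.4 to 96.1. After correction and normalization its log2 signal was 6.77, 6.43 and 6.27. Its signal was thus lower at each step from the high to the negative gate. It was 1.41-fold higher in the high than in the negative gate, 1.26-fold higher in the high than in the low gate, and 1.12-fold higher in the low than in the negative gate. The differences of the high gate from both others exceeded the probe SD as processed here. That between the low and negative gates, 0.16 on the log2 scale, did not, so the order of these neighbours is not settled. Under 5 other ways of computing the signals, the high minus low difference of Olig2 ranged from 0.19 to 0.39, against a probe SD of 0.26. Its high minus negative difference came down to 0.27, against 0.33. The lead of the high gate thus exceeded probe error only under some processing. Of 8613 genes, 1880 were at least as much higher as Olig2 in the high than in the negative gate, so a difference of this size was common.

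Olig1, the close relative of Olig2 in the oligodendrocyte lineage, was also brightest in the high gate. Its deposited signal was 1617 in the high gate, 1069 in the low gate and 1173 in the negative gate, and its log2 signal was 10.67, 9.88 and 10.08. It was 1.73-fold higher in the high than in the low gate, a log2 difference of 0.79 or 3.01 times the probe SD. There, 214 of 8427 genes, or 2.54%, were at least as much higher. Against the negative gate it was 1.51-fold higher. The low and negative gates differed by a log2 of -0.20, within the probe SD of 0.29, so the order of these neighbours is not settled. Olig1 and Olig2 stood above the negative gate by log2 differences of 0.59 and 0.50 in the high gate. Between the low and high gates the difference of Olig1 was larger than that of Olig2 by 0.45 on the log2 scale, against an SD of 0.37 for a departure between 2 probes.

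**Figure D1:**
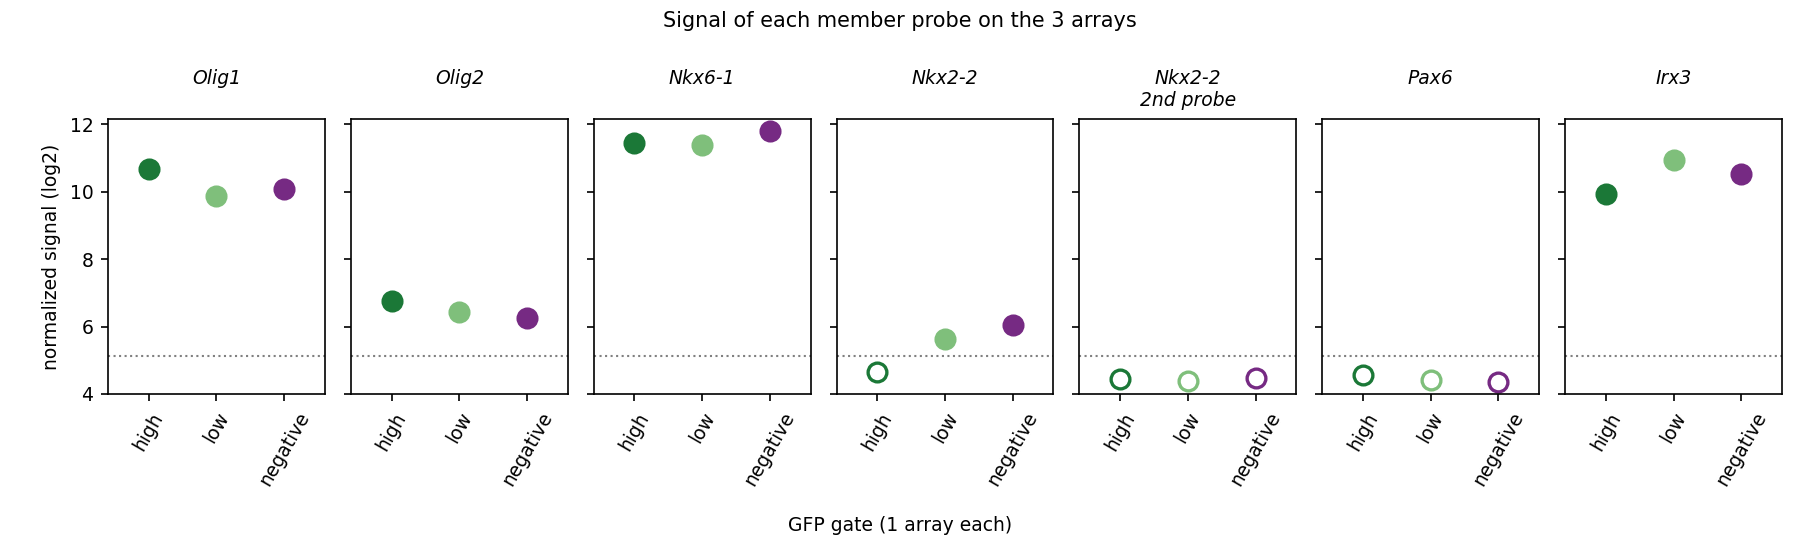
Normalized log2 signal (vertical axis) of each of the 7 probes in the high, low and negative gates (horizontal axis, 1 array each); filled circles were detected at p under 0.01, open circles were not, and the dotted line at 5.14 is the dimmest detected signal of the negative array. Olig1 and Olig2 are brightest in the high gate, Irx3 in the low gate and Nkx6-1 and Nkx2-2 in the negative gate, while Pax6 and the second Nkx2-2 probe lie under the line on all arrays.

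Nkx6-1 is a homeodomain repressor needed for motor neuron fate and shared by the motor neuron, V2 and V3 progenitor domains. Its span was the narrowest of the 5 detected genes as processed here. It was wider than that of Olig2 without background correction, or with 50 in place of 16 added to each signal. Its deposited signal was 2761 in the high gate, 2919 in the low gate and 3679 in the negative gate, and its log2 signal was 11.46, 11.40 and 11.80. It was brightest in the negative gate, 1.27-fold above the high gate and 1.31-fold above the low gate. Both differences exceeded the probe SD, the first only just, at 1.02 times. The high and low gates differed by a log2 of 0.055, within the probe SD, and 87.8% of 8427 genes differed by at least as much in either direction. All 3 values lay within 0.39 on the log2 scale.

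Nkx2-2, the homeodomain factor of the V3 progenitor domain and later of oligodendrocyte differentiation, was dim and brightest in the negative gate. Its brighter probe had a deposited signal of 100.9 in the high gate, 132.5 in the low gate and 144.1 in the negative gate, with detection p-values of 0.102, 0.00125 and 0. It was therefore not detected in the high gate and detected in the others. Its log2 signal was 4.65, 5.61 and 6.04. Set against the dimmest detected signal of the high array, it was at least 1.88-fold lower in the high than in the negative gate and at least 1.40-fold lower than in the low gate. The measured log2 differences were -1.39 and -0.96, but the value in the high gate is only a bound. Without background correction the same differences were -0.49 and -0.31, so the 2 bounds hold only as processed here. The low gate was 1.34-fold below the negative gate, a log2 difference of -0.42 against a probe SD of 0.29. A second Nkx2-2 probe, annotated to another transcript, was detected on no array, with deposited signals of 95.3, 95.7 and 98.5, so the order rests on 1 probe.

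Among the class I factors, Irx3, an Iroquois homeodomain factor of the domains above the motor neuron progenitors, was brightest in the low gate. Its deposited signal was 996.2 in the high gate, 2155 in the low gate and 1567 in the negative gate, and its log2 signal was 9.93, 10.94 and 10.53. The high gate was lowest. Irx3 was 2.02-fold lower in the high than in the low gate, a log2 difference of -1.01 or 3.86 times the probe SD, and 1.51-fold lower than in the negative gate. In the low gate it was 1.33-fold higher than in the negative gate, 1.44 times the probe SD. Of 8427 genes, 339, or 4.02%, were at least as much lower in the high than in the low gate.

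Pax6, the paired-box factor present in most progenitors above the V3 domain, was not detected on any array by its single probe. Its deposited signals were 98.8, 97.0 and 94.4 in the high, low and negative gates, with detection p-values of 0.150, 0.366 and 0.524. These values have no order, and a probe that is not detected does not show that the gene was silent.

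The authors' deposited value table, processed separately from the same arrays and floored at 10, gave each of the 5 detected members the same brightest gate. There, Olig1 had a signal of 1628 in the high gate, 933.1 in the low gate and 1077 in the negative gate. Olig2 had 95.8, 73.4 and 63.8, where the order of the low and negative gates is again not settled. Nkx6-1 had 2810, 2667 and 3506, and Irx3 had 965.8, 1962 and 1453. Nkx2-2 stood at the floor in the high gate, 34.3 in the low gate and 51.9 in the negative gate, and Pax6 stood at the floor in all 3.

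Across the members, 0 of 5 detected genes were at least 2-fold higher in any of the 3 comparisons. Between the high and negative gates, 1 of 5 was at least 2-fold lower, or 0 with Nkx2-2 at its bound, beside 9.88% of 8613 genes lower and 6.99% higher. The members' median log2 difference was -0.34, against 0.025 over all genes tested. Between the high and low gates, 1 of 5 was at least 2-fold lower, namely Irx3, beside 4.17% of 8427 genes lower and 1.10% higher, with a median of 0.055 against 0.033. Between the low and negative gates, 0 of 5 differed by 2-fold, beside 3.37% of 8516 genes higher and 2.68% lower, with a median of -0.20 against -0.021. With 5 genes, these counts do not stand apart from the background.

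**Figure D2:**
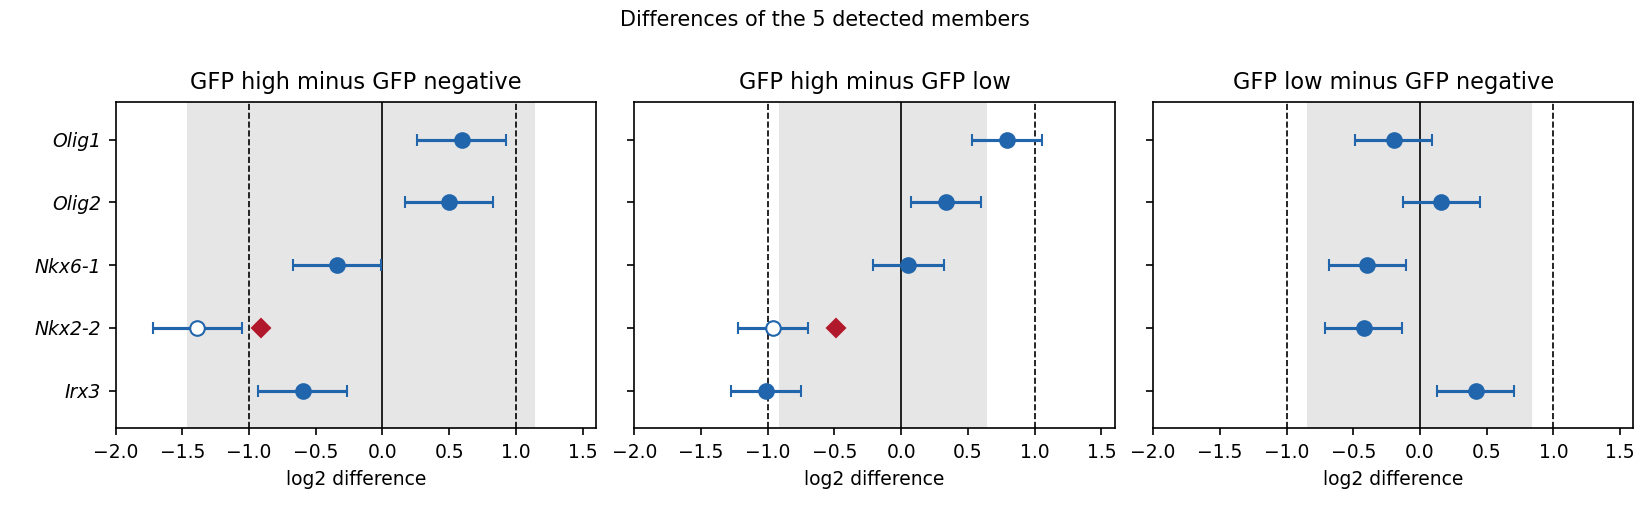
Log2 difference of normalized signal (horizontal axis) of the 5 detected genes in the 3 comparisons; bars are 1 SD of the difference read by 1 probe, the grey band spans the 5th to 95th percentile of all genes tested, dashed lines mark 2-fold, and open circles with red diamonds are Nkx2-2 values not detected in the high gate with their bound. In the high against the low gate, Olig1 at 0.79 and Irx3 at -1.01 lie outside the band on opposite sides, as does the measured -0.96 of Nkx2-2 but not its bound of -0.49.

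In the high gate, Olig1 and Olig2 stood apart from Irx3. The Olig1 signal relative to Irx3 was 3.49-fold higher in the high than in the low gate, a log2 shift of 1.80 against an SD of 0.37 for 2 probes. The Olig2 signal relative to Irx3, the mutually repressing pair at the upper border of the motor neuron domain, was 2.55-fold higher in the high than in the low gate and 2.14-fold higher than in the negative gate. Between the low and negative gates the shift of Olig2 against Irx3 was a log2 of -0.26, within the SD of 0.41. The Nkx6-1 signal relative to Irx3 was 2.10-fold higher in the high than in the low gate. Between the high and negative gates the shift of Nkx6-1 against Irx3 was a log2 of 0.26, within the SD of 0.47. There, Olig1 and Olig2 relative to Nkx6-1 were 1.91-fold and 1.79-fold higher in the high gate, both past that SD. These comparisons share arrays, so the shifts are not independent of each other. A shift between 2 probes alone does not show which of the genes differed, but the single differences do. Between the high and low gates these were -1.01 for Irx3, 0.79 for Olig1, 0.34 for Olig2 and 0.055 for Nkx6-1. The shift of Nkx6-1 against Irx3 there was thus almost all that of Irx3, which also had the larger part in that of Olig2.

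**Figure D3:**
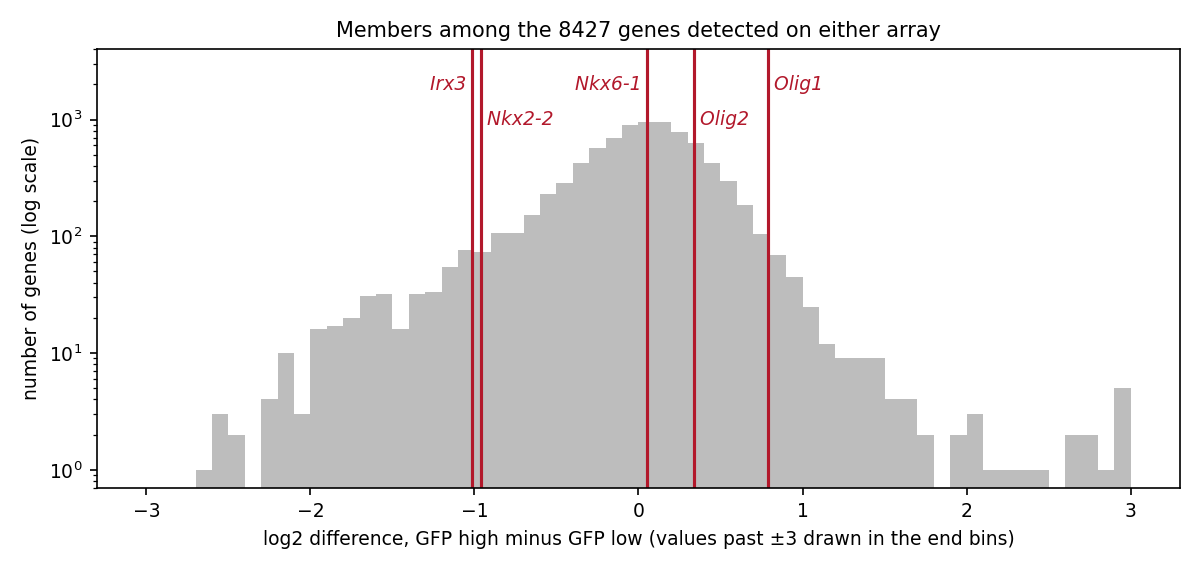
Number of genes (vertical axis, log scale) by log2 difference between the high and low gates (horizontal axis) for the 8427 genes detected on either array, with the 5 detected members as red lines. Irx3 at -1.01 and Nkx2-2 at -0.96 lie on the lower flank and Olig1 at 0.79 on the upper flank, while Nkx6-1 at 0.055 lies at the centre.

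The other detected Iroquois genes, relatives of Irx3 that also encode homeodomain factors, were brightest in the same gate. Irx1, Irx5, Irx4 and Irx6 were named after their values were seen. Irx5, the neighbour of Irx3 in the same gene cluster, had a log2 signal of 8.80, 9.62 and 9.45 in the high, low and negative gates. Irx2 had 7.41, 8.47 and 8.05, and Irx1 had 6.07, 6.90 and 6.10. All 4 detected Iroquois genes were thus brightest in the low gate and dimmest in the high gate. This order held under each of the 5 other ways of computing the signals. The share of all genes with this order was not counted, so it is not known whether these 4 stand apart from the background. Irx1 differed between the high and negative gates by a log2 of only -0.033 and Irx5 between the low and negative gates by 0.18, both within the probe SD. Irx4 and Irx6 were detected on no array, and whether the Iroquois probes share hybridisation was not tested.

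Irx2 was also the second most like gene to Irx3 of 8750 compared, by the distance between log2 signals centred on their own means over the 3 arrays, which was 0.038. The nearest was Psmd1, a subunit gene of the proteasome, at 0.033, and the third was Hs6st1, a heparan sulfate sulfotransferase gene, at 0.051. Irx5 ranked 27. Over only 3 arrays, 57 genes lay within a distance of 0.25 of Irx3. For Nkx2-2, whose value in the high gate is only a bound, the nearest were Tgif1, a homeodomain repressor gene, at 0.025, and Vat1l and Exosc8, a subunit gene of the RNA exosome, at 0.033 each, and 190 genes lay within 0.25.

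Factors of the other progenitor domains, from a list of 24 genes of which 19 had a probe, were read beside the members. Of all genes tested, 9.88% were past 2-fold lower and 6.99% higher in the high against the negative gate. In the high against the low gate these shares were 4.17% and 1.10%. They stand beside the counts of this and the later lists. In the high against the negative gate, 2 of 9 detected genes of this list were past 2-fold lower and 0 higher, with a median log2 difference of -0.46. These were Dbx1, a factor of the V0 progenitor domain, at 7.05-fold, and Foxn4, a factor of V2 progenitors, at 8.95-fold, against 1.51-fold for Irx3, which covers those domains too. The high against the low gate had 5 of 10 past 2-fold lower, at a median of -0.95, with 0 higher, and they were Foxn4, Dbx1, Olig3, Msx1 and Irx2. This count was 3 without the background step and with 50 added in place of 16. Olig3, the Olig relative of the dorsal neural tube, read 4.56, 6.21 and 4.99 on the log2 scale in the high, low and negative gates and was detected in the low gate alone, at least 2.12-fold above the high and 2.10-fold above the negative gate. Its order over the gates thus differed from that of Olig1 and Olig2. The list also held Dbx2, Pax3, Pax7, Foxa2 and Nkx2-9, which were among 9 genes detected on no array.

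**Figure D4:**
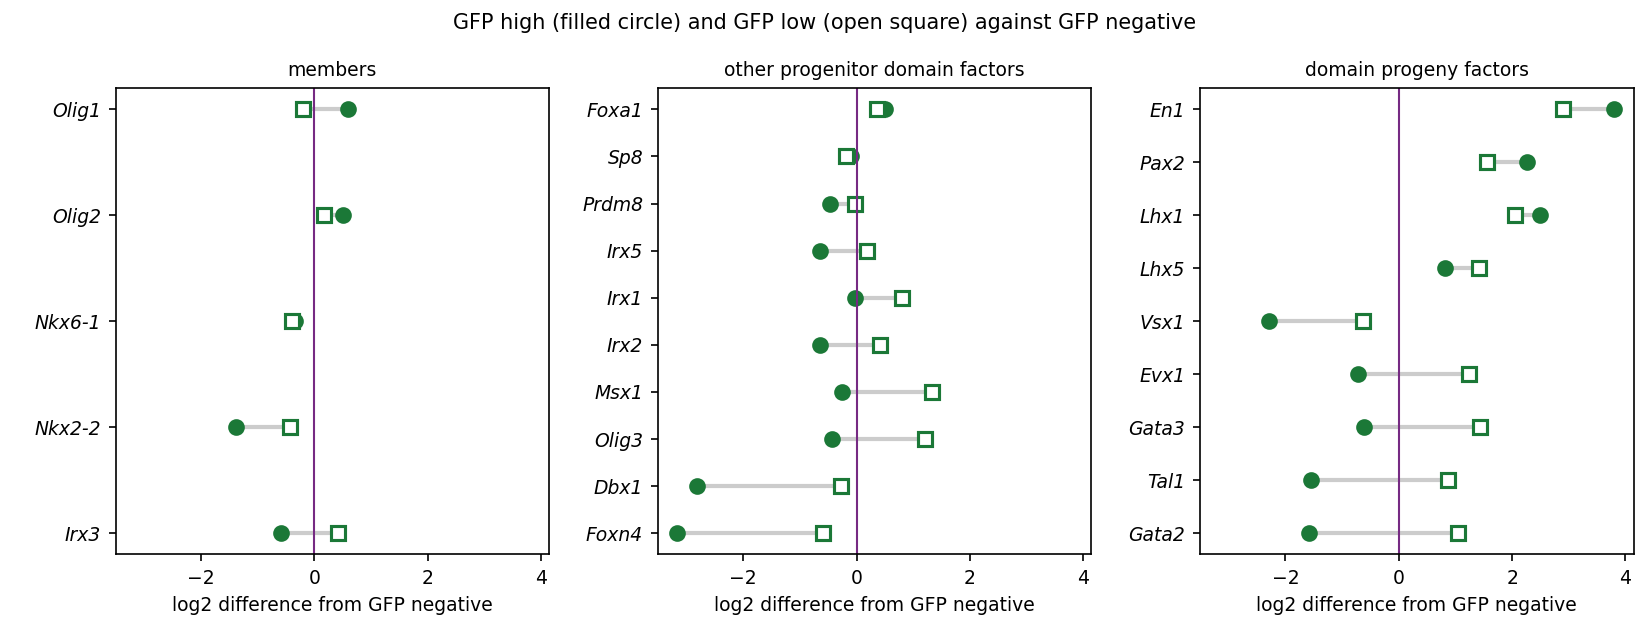
Log2 difference of signal from the negative gate (horizontal axis) in the high gate (filled circles) and low gate (open squares) for the 5 detected members, 10 other progenitor domain factors and 9 factors of the neurons born from the domains; genes not detected on an array are drawn at their measured signal. Irx3, Irx1, Irx2, Irx5, Msx1, Olig3, Evx1, Gata3, Tal1, Gata2 and Lhx5 have their square to the right of both their circle and the line of the negative gate, while the members Olig1 and Olig2 have their circle farthest right.

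Factors of the neurons born from these domains were read in the same way. Of 9 detected, 5 were past 2-fold lower in the high than in the low gate and 0 higher: the V2b factors Gata2 (6.20-fold), Tal1 (5.37-fold) and Gata3 (4.13-fold), the V0 factor Evx1 (3.91-fold) and Vsx1 of V2 precursors (at least 2.89-fold). Gata2, Tal1, Gata3 and Evx1 had the order of Irx3, brightest in the low gate and dimmest in the high gate. Others had the high gate brightest, as Olig1 and Olig2 did: the V1 factor En1, Pax2 and Lhx1 were past 2-fold higher there than in the negative gate, beside 3 of 9 that were past 2-fold lower. Sim1, the factor of the V3 interneurons that arise from the Nkx2-2 domain, was detected on no array. Of 8 motor neuron identity genes, all but Slc5a7 were detected. Of these, 7 of 7 were past 2-fold higher in the high than in the low gate, or 6 with Isl2 at its bound. They include Mnx1, whose reporter set the gates, so its 6.44-fold difference was built into the sort. Isl1, which specifies motor neurons, was 10.6-fold higher there, against 1.26-fold for Olig2 and 1.73-fold for Olig1.

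Olig1 and Olig2 also differed in sign from the median of general progenitor genes. In the high against the negative gate, 8 of 11 detected neural progenitor genes were past 2-fold lower, or 7 with Fabp7 at its bound, and 0 higher, with a median log2 difference of -1.37. The cell cycle list had 9 of 9 detected genes past 2-fold lower, with a median of -2.13. The same comparison gave 0.59 for Olig1, 0.50 for Olig2, -0.34 for Nkx6-1, -0.60 for Irx3 and a bound of -0.91 for Nkx2-2. The part of progenitor content in the member values was not tested. Among Hedgehog pathway genes, upstream of the class I and class II factors, Shh, Gli1, Gli3, Boc, Cdon and Gas1 were detected on no array. Of the 4 detected, 1 was past 2-fold lower in the high than in the negative gate and 0 higher. It was Hhip, an inhibitor that the pathway itself turns on, at least 3.34-fold lower, though under 2-fold without the background step. The log2 difference was -0.48 for Ptch1, with a bound of -0.18 for Sufu. For Smo it was -0.92 by the brightest probe and -0.13 and -0.20 by other probes. Of 9 detected genes for Groucho-type co-repressors, E-proteins and histone deacetylases that such factors work with, 0 differed by 2-fold in any comparison by their brightest probe. Between the high and negative gates, 9.88% of all genes were past 2-fold lower and 6.99% higher. A count of 0 in 9 thus does not stand apart from the background. Another probe of Tle1, a Groucho-type gene, was past 2-fold lower in the high than in the negative gate, and Tle6 was past 2-fold higher there in the authors' deposited table.

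Several members also act in other cell types, whose markers were read on the same arrays. Of 8 oligodendrocyte lineage genes with a probe, 4 were detected, and Cspg4, Gpr17, Mog and Zfp488 were not. The signals of all 8, summed after background correction and without the offset, were 887.3, 452.8 and 582.0 in the high, low and negative gates. Such a sum, here and for the lists below, weighs each gene by the brightness of its probe and includes genes not detected. Mbp, a myelin gene, carried most of the sum in the high gate, with 707.3 there, and without it the sums were 179.9, 177.5 and 330.6, which is not the order of Olig1. Mbp was 2.71-fold higher in the high than in the negative gate by its brightest probe, while another detected probe gave a log2 difference of -0.07. Of the other detected genes, Sox8 and Pdgfra were lower in the high than in the negative gate, with log2 bounds of -0.82 and -1.65, and Cnp stood at -0.27, within the probe SD. The part of such cells in the Olig1 values was not tested. Of 9 pancreatic endocrine genes with a probe, a tissue that also uses Nkx2-2, Nkx6-1 and Pax6, 8 were detected on no array, Pdx1, Ins2 and Gcg among them, and the exception was Sst, which neurons also express. Of 7 eye and forebrain genes with a probe, where Pax6 also acts, 6 were detected on no array, and the exception was Otx2. The negative gate, where Nkx2-2 and Nkx6-1 were brightest, had the highest sums of the fibroblast and feeder list (269.1, 668.4 and 2972 in the high, low and negative gates, 4 of 12 detected, with Col1a1, Col1a2 and Col3a1 not detected) and of the endoderm and epithelial list (93.0, 110.9 and 617.5, 7 of 10 detected, with Foxa2, Gata4 and Afp not detected). The negative gate kept the highest sums without the brightest gene of each list. Their part in the Nkx2-2 and Nkx6-1 values was not tested.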

How the data were processed

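Total RNA of 3 sorted populations was amplified, labelled with biotin and hybridised to an Illumina bead array, per the labels' protocols. Per the file headers, the deposited intensity is linear and not normalized, and a deposited detection p-value stands beside each. GenomeStudio is named per the submitters' processing notes, with no version in them. A second deposited table holds linear intensity floored at 10 for 47.5% of probes, and how the authors subtracted background and normalized it is not stated in these sources. Its medians were 12.6, 12.5 and 12.5 for the high, low and negative gates. Over 5310 probes above 300, the log2 differences of each gate from the mean of the 3 gates correlated between both tables across probes at 0.994, 0.991 and 0.994 in that order. Both tables thus run in the same direction, while a correlation does not compare the size of their differences.

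Background was removed with normexp, fitted on the detection p-values, 16 was added, and arrays were quantile normalized before log2 (limma 3.58.1, R 4.3.3). Adding 16 draws folds of dim genes toward 1. Python 3.11.15, numpy 2.4.6 and pandas 2.3.3 did the rest, and the steps were tested on simulated data. The platform annotation gives 1 symbol to 23978 probes, several to 0 and none to 1719. Gene IDs tied 23962 of the probes with 1 symbol to a current gene table. The brightest probe, by its mean, stood for a gene. Genes counted at 2-fold were detected in either gate compared. For a gene undetected in the dimmer gate, the fold is a bound against the higher of its own signal and the dimmest detected signal there, which was 5.13, 5.13 and 5.14 in log2 for the high, low and negative gates. Such a bound holds only under this processing. The number of arrays, 1 per group, limits the precision.

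The members, gene lists and settings were chosen with earlier results of these data known. The text names all members, at most 5 genes of each other list and comparison (the largest differences past 2-fold), Mnx1, and the 3 genes most like each member that spans 1 or more in log2. Genes named as not detected were named outside this rule after their values were seen. So were Irx1, Irx5, Isl2, Fabp7, Cnp, Sox8, Tle1, Tle6, Ptch1, Smo and Sufu.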

Additional observations from a re-analysis of the deposited data

How the results depend on the processing

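Of 72 counts and medians recomputed under 8 alternatives, 64 stayed within 1.5 times for a count or within the probe SD for a median. Many of these were counts of 0 that stayed 0, and the alternatives that change only the detection filter reuse the same signals. The 64 thus overstates how far the results were tried. The count of members at least 2-fold lower in the high gate than in the negative gate was 0 in place of 1 without the normexp step, with an offset of 50, over genes detected on both arrays and with probes averaged per gene, since it rests on Nkx2-2 alone. The median of that comparison was 0.080 in place of -0.34 over genes detected on both arrays, which leave Nkx2-2 out. The count lower in the high gate than in the low gate was 0 in place of 1 without normexp and with an offset of 50, where Irx3 lies just under 2-fold, and 2 with the authors' value table, where Nkx2-2 joins it. The 5 detected members kept the sign of their differences under all 5 alternatives that change the values. Olig1 ranged from 0.73 to 0.80 and Irx3 from -1.08 to -0.96 in the high minus the low gate, Olig2 from 0.27 to 0.59 in the high minus the negative gate, and Nkx2-2 there from -2.38 to -0.49. All genes at least 2-fold higher or lower in the high gate than in the negative gate numbered 602 and 851, but 259 and 437 without normexp, 356 and 567 with an offset of 50, and 904 and 1186 in the authors' value table. For the high against the low gate they numbered 93 and 351, but 37 and 145 without normexp, 49 and 199 with an offset of 50, and 300 and 600 in the authors' value table. For the low against the negative gate they numbered 287 and 228, but 105 and 77, 165 and 107, and 513 and 544 under the same settings. Of the 112 differences of listed genes of at least 2-fold, 112 kept their sign under the 5 value alternatives, but 42 were under 2-fold in at least 1 of them. Among these, Irx2, Olig3, Vsx1 and Isl2 in the high minus the low gate came down to -0.49, -0.60, -0.70 and 0.47, and Hhip in the high minus the negative gate to -0.80. Counts past 2-fold in the high against the low gate ranged from 3 to 6 for other progenitor domain factors, from 4 to 5 for neuron factors and from 6 to 7 for motor neuron genes. Against the negative gate, neural progenitor genes lower numbered 7 to 9, cell cycle genes 8 to 9 and Hedgehog genes 0 to 1. These list counts, and list sums without the brightest gene, were chosen after seeing the data. No paired analysis was possible because each group has 1 array. Olig2, Nkx2-2 and Pax6 lie close to background, which limits what their folds can show.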
